A study of Mus musculus with 9 samples.

Results

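The serotonin receptors of the mouse trigeminal ganglion (TG) that bind the triptans were followed after inflammation of the temporomandibular joint (TMJ), together with serotonin receptor genes of the same and of other classes. The set held 10 genes of the 21809 gene sums in the mRNA table, namely Htr1b, Htr1d, Htr1f, Htr1a, Htr2a, Htr2c, Htr3a, Htr3b, Htr6 and Htr7. They were chosen by gene symbol, and the FPKM (fragments per unit of transcript length and of sequencing depth) of all transcripts of a gene were added up. They had 27 of the 102122 transcripts in the table.

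The TG of wild-type male C57BL/6 mice aged 8 weeks was taken after a unilateral injection of 10 µl into the TMJ. The 3 groups were saline replicates 1 to 3, labelled day 3, CFA3D replicates 1 to 3, which received complete Freund's adjuvant (CFA) at 5 mg/ml and were taken on day 3, and CFA6D replicates 4 to 6, which received the same and were taken on day 6. Each library pooled the TG of 3 mice, so the replicates were pools and the p-values below measure the spread between pools. There was no saline group at day 6, so for CFA6D the effect of CFA and that of 3 more days cannot be told apart.

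Serotonin acts on primary afferent neurons through G protein-coupled receptors and through a ligand-gated ion channel. Receptors of the Htr1 class couple to Gi/o and lower the release of transmitter and of the peptide CGRP, and the migraine drugs called triptans act on the products of Htr1b, Htr1d and Htr1f. Receptors of the Htr2 class couple to Gq, Htr6 and Htr7 products couple to Gs, and the Htr3a and Htr3b products are subunits of a cation channel that excites the neuron directly.

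Sequences are shown where the table split a receptor into forms that encode different proteins, because the sum over a gene hides these. The Htr3a transcripts ENSMUST00000217289 and ENSMUST00000003826 use alternative acceptor sites of the last coding exon. The long form has 18 more bases, or 6 codons, at chr9:48899991-48900008 of GRCm38 on the minus strand, in the part that encodes the large intracellular loop of the channel subunit. Capitals mark the bases of the long form only, with 30 coding bases on each side.
Htr3a long form: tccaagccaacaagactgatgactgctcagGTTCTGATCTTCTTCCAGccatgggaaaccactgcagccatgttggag
Htr3a short form: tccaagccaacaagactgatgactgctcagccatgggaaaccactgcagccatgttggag

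The Htr7 transcripts ENSMUST00000164639, ENSMUST00000166074 and ENSMUST00000099505 share the coding sequence up to chr19:35969309 of GRCm38 on the minus strand and then end differently. Their coding sequences have 448, 435 and 470 codons before the stop, and the last of them includes an exon of 97 bases at chr19:35964381-35964477. Capitals mark the bases after the last shared one, up to and including the stop codon, and so encode the alternative carboxyl tails of this Gs-coupled receptor.
Htr7 form of 448 codons: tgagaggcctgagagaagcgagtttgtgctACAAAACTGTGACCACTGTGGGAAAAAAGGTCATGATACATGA
Htr7 form of 435 codons: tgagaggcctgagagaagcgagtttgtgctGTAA
Htr7 form of 470 codons: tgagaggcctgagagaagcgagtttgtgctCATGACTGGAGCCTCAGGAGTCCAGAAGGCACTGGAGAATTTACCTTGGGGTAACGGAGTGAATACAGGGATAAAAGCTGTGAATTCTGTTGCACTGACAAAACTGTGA

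Some libraries stood apart in ways that the labels do not give. Saline replicate 3 held pituitary transcripts, with growth hormone (Gh) at 9120 FPKM against 5.10 to 742 FPKM in the other libraries, and it had the highest value of 7 of 8 markers of central nervous tissue. CFA6D replicate 4 (Gh 742 FPKM, Pomc 282 FPKM) and CFA6D replicate 5 (Pomc 343 FPKM) also held pituitary transcripts. CFA6D replicate 6 had the highest value of all 6 neutrophil markers and all 5 platelet markers. Saline replicate 2 had the highest value of all 6 skeletal muscle markers, which summed to 152 FPKM there against 1.25 to 67.6 FPKM elsewhere, and of all 5 erythroid markers, which summed to 5789 FPKM against 1667 to 3862 FPKM. Among the genes of these and other cell type lists, those past the call threshold used below (a log2 fold change of 1 or more in size and an unadjusted p under 0.05) for CFA3D against saline were Avp (log2 fold change 2.27) and Myh1 (-3.72), and those for CFA6D against saline were the neutrophil genes S100a8 (2.32) and Retnlg (2.24). For CFA6D against CFA3D they were all 6 neutrophil genes (S100a8, S100a9, Retnlg, Camp, Ngp and Ltf, 2.65 to 3.32), the platelet genes Gp9 (1.48) and Gp1bb (1.24), and Hdc of the mast cell list (1.49). Their adjusted p in limma was 0.393 or more. Hdc stood at 8.17 FPKM in CFA6D replicate 6 and at 0.375 to 1.80 FPKM elsewhere. Of the same list Cpa3 (-0.20), Tpsb2 (-0.33), Cma1 (-0.53) and Mcpt4 (-0.62) were lower in that comparison. Ms4a2 (0.03), Fcer1a (0.05) and Kit (0.33) were higher. The 16 markers of sensory neurons summed to 1059 FPKM in saline replicate 3 and to between 1286 and 1569 FPKM in the others, so transcripts of ganglion neurons were abundant in every pool. The depth, estimated from the smallest steps in the values, ran from 30 M to 42.2 M (mega) read pairs. This is the number of read pairs on which the FPKM values rest. The read totals that the paper gives for each group count all raw reads and are another measure.

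The channel subunit Htr3a was by far the most abundant receptor transcript, at a mean of 42.2 FPKM over the 9 libraries and above 94.1% of the gene sums tested. It made up 64.1% to 73.6% of the summed FPKM of the 10 receptors. Below it followed Htr1b (5.44 FPKM), Htr1d (4.63), Htr3b (3.32), Htr7 (1.68), Htr1f (1.22), Htr2a (0.821), Htr1a (0.657), Htr6 (0.210) and Htr2c (0.142), all as mean FPKM over the 9 libraries. In this order Htr3a and Htr1b, Htr3b and Htr7, and Htr1a and Htr6 had ranges that did not overlap. Htr1b exceeded Htr1d in 5 of 9 libraries only, so their order is within the spread. The ranges of the other neighbours overlapped, although Htr1d exceeded Htr3b, and Htr2a exceeded Htr1a, in 9 of 9 libraries. When transcripts were weighted by length, as described below for Htr1b, Htr3b (3.32 FPKM) came before Htr1b (3.25) and Htr1d (2.99), and Htr3b exceeded Htr1b in 5 of 9 libraries.

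**Figure D1:**
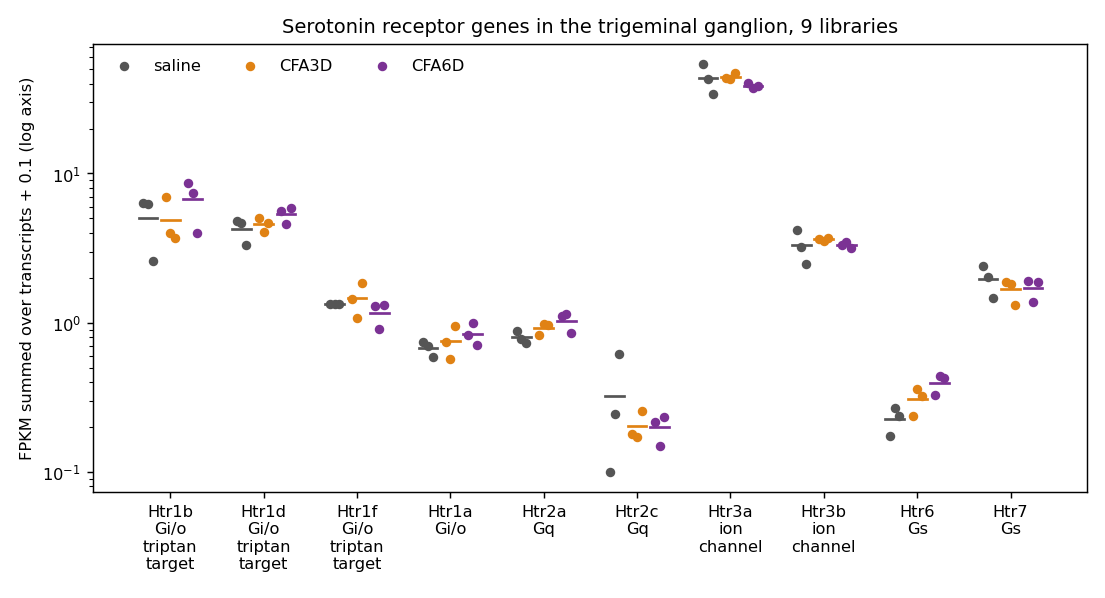
FPKM summed over transcripts plus 0.1 on a log axis for the 10 receptor genes, grouped by coupling class, with 3 libraries each for saline, CFA3D and CFA6D and a line at each group's mean. Htr3a lies between 34.0 and 53.7 FPKM before the 0.1 is added and Htr2c between 0 and 0.520 FPKM.

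No receptor gene sum was called in any comparison, where a call took both a doubling or halving of FPKM + 0.1 (a log2 fold change of 1 or more in size) and an unadjusted p under 0.05. Among all 16096 gene sums tested, 0.342% were called for CFA3D against saline, 0.584% for CFA6D against saline and 0.770% for CFA6D against CFA3D. By unadjusted p alone, with no fold change minimum, 0 of 10 receptors passed for CFA3D against saline (4.45% of all gene sums), 1 of 10 for CFA6D against saline (11.1%) and 0 of 10 for CFA6D against CFA3D (7.39%). The receptor that passed was Htr6. In limma with Benjamini-Hochberg adjustment no gene sum of the table reached an adjusted p under 0.05, and the lowest adjusted p of a receptor was 0.340. The median log2 fold change of the 10 receptors was 0.11 for CFA3D against saline, 0.18 for CFA6D against saline and 0.09 for CFA6D against CFA3D, beside 0.05, 0.03 and -0.02 over all gene sums tested. It was above 0 for 8, 6 and 6 of the 10 receptors in these comparisons and for 64.6%, 54.4% and 46.1% of all gene sums.

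Groups that did not overlap were found for 0 of 10 receptors for CFA3D against saline (9.13% of all gene sums tested), for 2 for CFA6D against saline (16.2%), namely Htr1f and Htr6, and for 2 for CFA6D against CFA3D (16.7%), namely Htr3a and Htr3b.

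**Figure D2:**
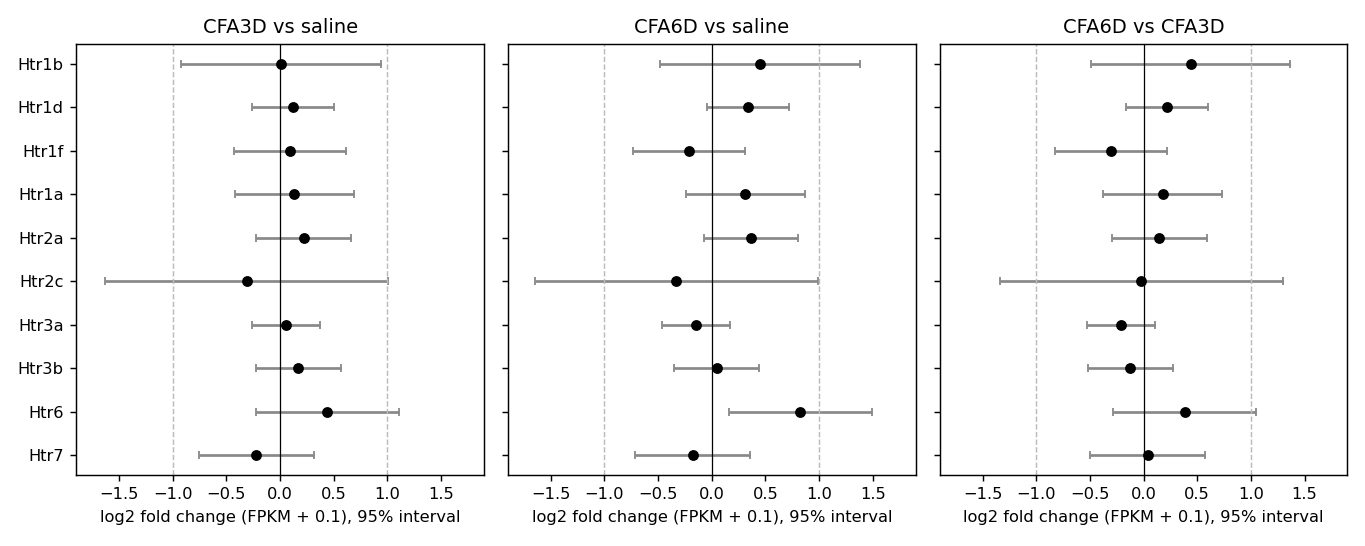
Log2 fold change of FPKM + 0.1 with its 95% interval from limma for the 10 receptor genes, in a panel for each comparison, with dashed lines at a change of 1 in size. Only the interval of Htr6 for CFA6D against saline, 0.16 to 1.49, leaves out 0.

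Htr1b encodes the Gi/o-coupled receptor through which triptans act on blood vessels and on afferent terminals. Its summed level was 6.21, 6.11 and 2.49 FPKM in saline replicates 1 to 3, 6.88, 3.88 and 3.61 FPKM in CFA3D replicates 1 to 3, and 8.60, 7.33 and 3.87 FPKM in CFA6D replicates 4 to 6. The groups overlapped, since each held a library under 4 FPKM and a library above 6 FPKM. The log2 fold change was 0.01 for CFA3D (SE 0.41) and 0.45 for CFA6D (SE 0.41), with adjusted p of 0.999 and 0.729 in limma.

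The summed level of Htr1b went with how its reads were divided between 2 transcript models. ENSMUST00000051005, with 1273 bases, lies wholly inside an exon of ENSMUST00000183482, with 4724 bases, and both hold the same coding sequence. The short model stood at 4.55 to 6.73 FPKM in 5 libraries and at 0.0633 to 0.0932 FPKM in saline replicate 3, CFA3D replicates 2 and 3 and CFA6D replicate 6. In these 4 libraries the long model stood at 2.43 to 3.81 FPKM, and in the other 5 at 1.38 to 1.87 FPKM. A read placed on the short model adds more FPKM than a read placed on the long model, so the sum falls when reads move to the long model.

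To take the division out, FPKM times length was added up over the models and expressed per length of the long model. This length-weighted level was chosen after the split had been seen. It was 2.89, 2.65 and 2.44 FPKM in saline, 3.13, 3.83 and 3.55 FPKM in CFA3D, and 3.69, 3.30 and 3.80 FPKM in CFA6D. All 6 CFA libraries lay above all 3 saline libraries, as did 3.77% of the 15951 gene sums tested on this scale. The group means were 2.66 ± 0.222 (SD, n = 3 pools) in saline, 3.50 ± 0.355 in CFA3D and 3.59 ± 0.263 in CFA6D.

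On the length-weighted scale the log2 fold change of Htr1b was 0.38 for CFA3D (SE 0.12, 95% interval 0.12 to 0.64) and 0.42 for CFA6D (SE 0.12, 95% interval 0.16 to 0.68). The unadjusted p was 0.00892 and 0.00528, and 4.74% and 12.2% of all gene sums had an unadjusted p under 0.05 in these comparisons. After adjustment over all gene sums the limma p was 0.954 and 0.177, so the difference did not hold up against the number of genes tested. Leaving out each library in turn gave log2 fold changes from 0.32 to 0.46 for CFA3D and from 0.36 to 0.48 for CFA6D. The approximate number of read pairs behind it was 418, 376 and 464 in saline, 623, 715 and 604 in CFA3D and 686, 588 and 681 in CFA6D. These numbers also follow depth, which was lowest in saline replicates 1 and 2.

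**Figure D3:**
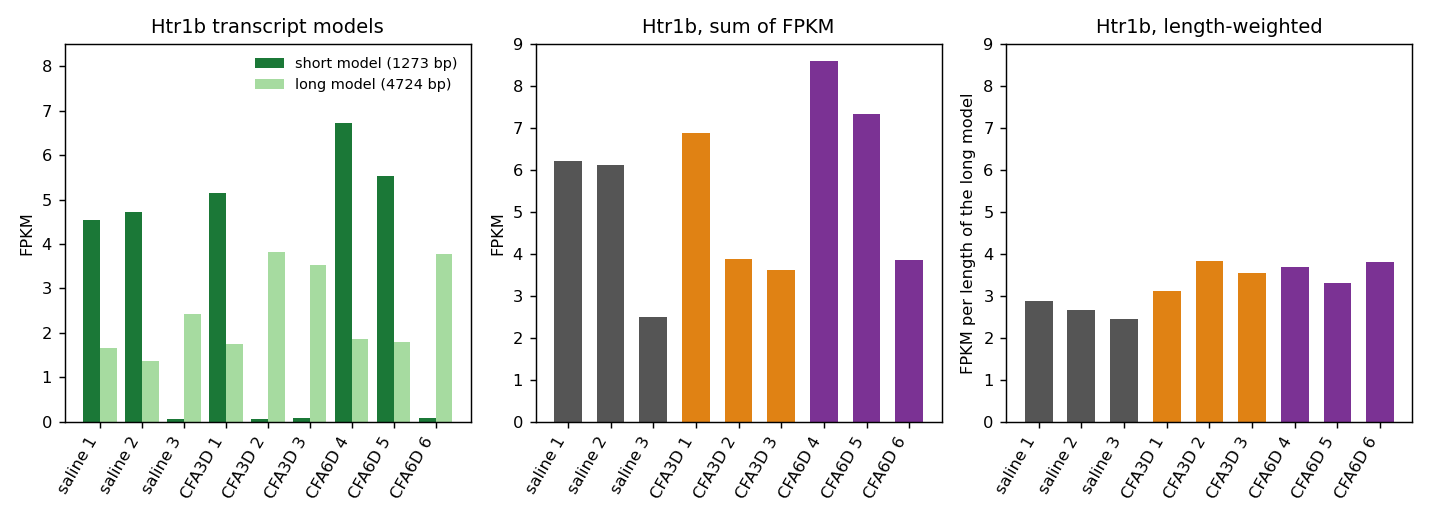
Htr1b in each of the 9 libraries, as FPKM of the short and the long transcript model (left), as their sum (middle) and as the length-weighted level in FPKM per length of the long model (right). The short model is near 0 in 4 libraries, the sum runs from 2.49 to 8.60 and the length-weighted level from 2.44 to 3.83 with every CFA library above every saline library.

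Markers of sensory neurons moved in the same comparisons. Of 16 markers, 4 had a higher level at an unadjusted p under 0.05 on CFA3D and 6 on CFA6D, beside 3.65% and 8.22% of all gene sums, and none was lower at that p or called. Their median log2 fold change was 0.28 and 0.19, beside 0.05 and 0.03 over all gene sums. The most abundant of the list were peripherin (Prph), with log2 fold changes of 0.20 on CFA3D and 0.17 on CFA6D, and Calca, which encodes CGRP, with 0.36 and 0.10. The largest change of the list was that of the sensory transcription factor Pou4f1 on CFA6D, at 0.56 (adjusted p of 0.103 in limma), and Mrgprd, a receptor of nociceptors, stood at 0.51. Pou4f1 and Mrgprd were named after their values had been seen. Isl1 was lower on CFA6D (-0.05) and Ntrk2 on CFA3D (-0.02), and P2rx3 stood at 0.06 on CFA6D. The summed level of the list was 1059 to 1385 FPKM in saline, 1350 to 1569 FPKM in CFA3D and 1344 to 1566 FPKM in CFA6D, and its part in the Htr1b values was not tested. In these bulk pools, fewer cells of a type and less RNA per cell cannot be told apart. The antisense lncRNA gene D430036J16Rik at chr9:81631551-81645156 overlaps Htr1b and summed to 0.711 to 1.42 FPKM in saline, 0.569 to 1.21 FPKM in CFA3D and 0.722 to 1.29 FPKM in CFA6D. The study's methods describe strand-specific libraries, the labels name a kit that is not described as stranded, and whether counting used strand is not given in either, so the origin of reads in the overlap was not settled.

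Htr1d, whose triptan-binding receptor is known from trigeminal afferents, was read at 4.69, 4.59 and 3.21 FPKM in saline, 4.92, 3.96 and 4.59 FPKM in CFA3D and 5.53, 4.47 and 5.73 FPKM in CFA6D. CFA6D replicates 4 and 6 held the highest values, and CFA6D replicate 5 fell inside the saline range. The log2 fold change on CFA6D was 0.34 (SE 0.17, 95% interval -0.05 to 0.72) with an adjusted p of 0.518 in limma, and without saline replicate 3, the lowest library, it was 0.16. Without CFA6D replicate 5, the lowest library of its own group, it was 0.45, at an unadjusted p of 0.0414 in limma. Among its 4 transcripts, ENSMUST00000088677 had the highest mean (1.87 FPKM) and a log2 fold change of 0.44 on CFA6D at an unadjusted p of 0.0473 and an adjusted p of 0.732 in limma.

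Htr1f encodes a receptor that several triptans bind and that lasmiditan targets. Its 1 transcript gave 1.24, 1.23 and 1.24 FPKM in saline, 1.35, 0.984 and 1.74 FPKM in CFA3D and 1.19, 0.810 and 1.21 FPKM in CFA6D. The saline pools were nearly equal and every CFA6D library lay below them, but the CFA3D libraries lay on both sides. On CFA6D the log2 fold change was -0.21 (SE 0.23) with an adjusted p of 0.773 in limma, and -0.04 without CFA6D replicate 5.

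Htr1a, the remaining Gi/o-coupled member, was read at 0.642, 0.595 and 0.492 FPKM in saline, 0.644, 0.470 and 0.847 FPKM in CFA3D and 0.726, 0.891 and 0.609 FPKM in CFA6D. All groups overlapped. The log2 fold changes were 0.13 on CFA3D and 0.31 on CFA6D, each with an SE of 0.25.

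Htr2a, which encodes the Gq-coupled receptor of platelets, smooth muscle and neurons, stood at 0.782, 0.676 and 0.636 FPKM in saline, 0.730, 0.886 and 0.871 FPKM in CFA3D and 1.00, 1.05 and 0.756 FPKM in CFA6D. Only CFA6D replicate 6 and CFA3D replicate 1 fell inside the saline range. The log2 fold change was 0.22 on CFA3D and 0.37 on CFA6D, each with an SE of 0.20, and the adjusted p on CFA6D was 0.536 in limma. Without CFA6D replicate 6, which had the highest platelet markers and the lowest Htr2a of its group, the log2 fold change was 0.50 at an unadjusted p of 0.0400 in limma.

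Htr2c, whose receptor is known mainly from the brain and the choroid plexus, was close to absent. It was listed at 0, 0.145 and 0.520 FPKM in saline, 0.0794, 0.0724 and 0.157 FPKM in CFA3D and 0.116, 0.0498 and 0.135 FPKM in CFA6D. Saline replicate 3 alone lay above 0.2 FPKM, and the other 8 libraries rested on an estimated 0 to 20.9 read pairs each. The log2 fold change was -0.31 on CFA3D and -0.33 on CFA6D, each with an SE of 0.59, and the 95% interval of the latter ran from -1.65 to 0.98. Without saline replicate 1, the library at 0, these changes were -0.96 and -0.99, with unadjusted p of 0.0715 and 0.0665 in limma. Without saline replicate 3 the gene fell under the mean of 0.1 FPKM needed for a test.

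The high Htr2c library was also the library with the most central nervous and the most pituitary transcripts. Its Gh stood at 9120 FPKM, against 5.10 to 742 FPKM in the other libraries. The 8 markers of central nervous tissue summed to 528 FPKM in saline replicate 3 and to 86.6 to 374 FPKM elsewhere. Olig2, a transcription factor of oligodendrocytes, stood at 3.96 FPKM there against 0.149 to 1.72 FPKM in the other libraries, and the astrocyte glutamate transporter Slc1a2 at 24.5 FPKM against 2.98 to 12.6 FPKM. The 8 choroid plexus markers summed to 17.1 FPKM in saline replicate 3, inside the range of 13.9 to 26.4 FPKM of the others. The most abundant of these markers were Sostdc1 and Kcnj13, with means of 9.0 and 4.69 FPKM over the 9 libraries. In saline replicate 3, 2 of the 8 were highest, Kl (1.31 FPKM) and Folr1 (1.60 FPKM). In CFA3D replicate 2, which had the highest sum, 4 of the 8 were highest, with Ttr at 5.84 FPKM and Htr2c at 0.0724 FPKM. Otx2, another marker of that list, was at 0.0933 FPKM or less in all libraries. The part of these tissues in the Htr2c values was not tested.

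None of the 7 Htr2c transcripts reached the mean of 0.1 FPKM needed for a test. ENSMUST00000156697 was listed at 0.285 FPKM in saline replicate 3 and at 0 in the other libraries. The microRNAs Mir764, Mir1912, Mir1298 and Mir448, whose hairpins lie in Htr2c introns, were listed at 0 in all 9 libraries, and Mir1264 was above 0 in saline replicate 3 only, at 0.0163 FPKM. Other noncoding RNAs inside Htr2c did not single out that library. Snora35 was above 0 in saline replicate 3 (0.0824 FPKM) and in CFA6D replicate 6 (0.112 FPKM). Gm22650 was above 0 only in CFA3D replicate 2 (0.168 FPKM) and CFA6D replicate 4 (0.178 FPKM), and Gm24627 was at 0 throughout.

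**Figure D4:**
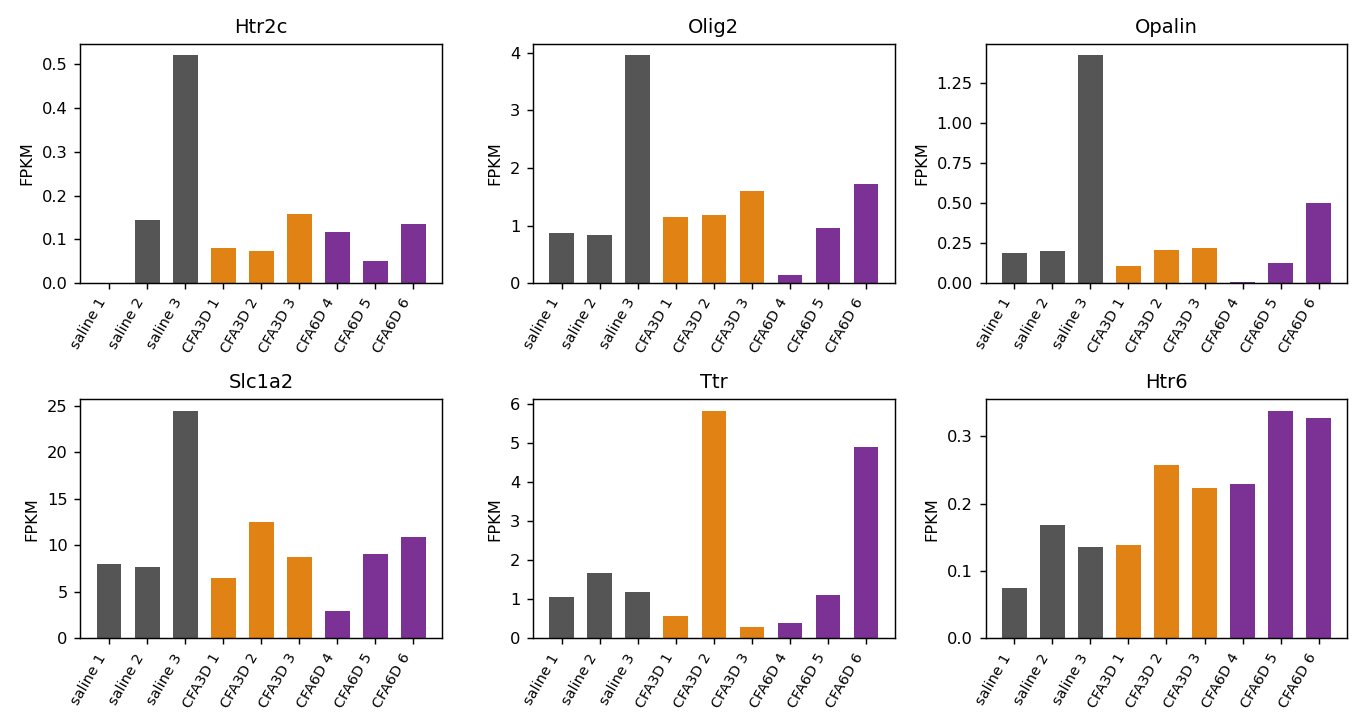
FPKM of Htr2c, of Olig2, Opalin and Slc1a2 from central nervous tissue, of Ttr from the choroid plexus and of Htr6, each as a bar for every library on its own scale. Saline replicate 3 is highest for Htr2c (0.520), Olig2 (3.96), Opalin (1.43) and Slc1a2 (24.5) but not for Ttr (1.20), and Htr6 is higher in each CFA6D library (0.229 to 0.338) than in each saline library (0.0745 to 0.168).

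The channel subunit Htr3a was read at 53.7, 42.7 and 34.0 FPKM in saline, 43.8, 42.6 and 47.0 FPKM in CFA3D and 40.0, 37.1 and 38.5 FPKM in CFA6D. The saline pools spread over the values of both CFA groups, and each CFA6D library lay below each CFA3D library. The log2 fold changes were 0.06 for CFA3D against saline, -0.15 for CFA6D against saline and -0.21 for CFA6D against CFA3D, each with an SE of 0.14. Their adjusted p in limma was 0.997, 0.733 and 0.738. The 95% intervals of the first 2, -0.26 to 0.37 and -0.47 to 0.17, leave out a doubling and a halving of this transcript. Without saline replicate 3 the log2 fold change on CFA6D was -0.31, more than 1.5 times as large, with an unadjusted p of 0.0171 in limma, and without saline replicate 1 it was 0.014.

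Htr3b, the partner subunit, followed Htr3a at a lower level. It was 4.07, 3.14 and 2.37 FPKM in saline, 3.57, 3.43 and 3.58 FPKM in CFA3D and 3.24, 3.36 and 3.08 FPKM in CFA6D. As with Htr3a, saline replicate 1 was highest, saline replicate 3 lowest and every CFA6D library below every CFA3D library. Its log2 fold changes were 0.17, 0.05 and -0.12 in the same order of comparisons, each with an SE of 0.18. Without saline replicate 1 the first of these was 0.36, at an unadjusted p of 0.0393 in limma, and without saline replicate 3 it was -0.020.

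The ratio of Htr3a FPKM to Htr3b FPKM was examined after the values of both genes had been seen. It was 13.2, 13.6 and 14.4 in saline, 12.3, 12.4 and 13.1 in CFA3D and 12.3, 11.1 and 12.5 in CFA6D. Each CFA library had a lower ratio than each saline library, but the nearest, CFA3D replicate 3 and saline replicate 1, were at 13.13 and 13.19. How many other pairs of genes separate the groups in this way was not counted. The exact two-sided permutation test gave 0.1 for CFA3D and for CFA6D against saline, which is the smallest p that 3 libraries against 3 allow, and 0.5 for CFA6D against CFA3D.

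The short form of Htr3a carried most of its FPKM. The long form shown above was 15.1%, 30.8% and 18.4% of Htr3a FPKM in saline, 28.2%, 28.3% and 20.2% in CFA3D and 21%, 17.1% and 20.8% in CFA6D. The saline pools already covered this whole range, and the exact permutation p was 0.6, 0.9 and 0.3 for CFA3D against saline, CFA6D against saline and CFA6D against CFA3D. The forms share nearly all of their bases, so their division rests on few of the reads.

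**Figure D5:**
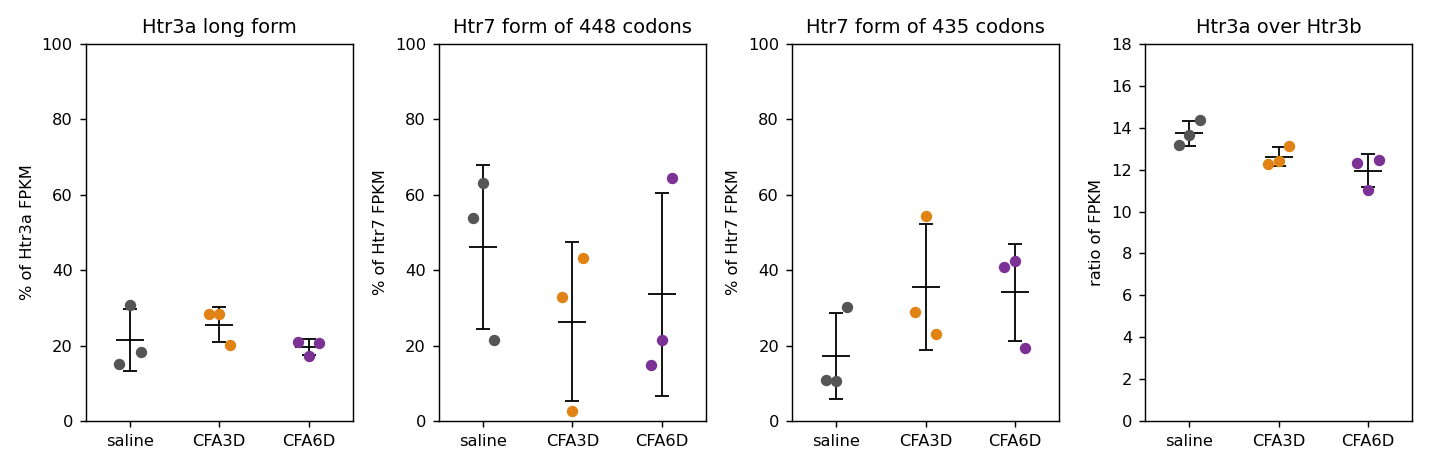
Share of the Htr3a long form in Htr3a FPKM, shares of the Htr7 forms of 448 and 435 codons in Htr7 FPKM, and the ratio of Htr3a to Htr3b FPKM, with a point for each library and the mean ± SD of 3 libraries per group. The Htr7 shares range from 2.67% to 64.3% and from 10.6% to 54.4% and overlap between groups. The ratio, chosen after its values had been seen, is 13.2 to 14.4 in saline and 11.1 to 13.1 after CFA.

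Htr6, a Gs-coupled receptor known mainly from the brain, had a low level that was higher on CFA6D at an unadjusted p only. It was 0.0745, 0.168 and 0.136 FPKM in saline, 0.139, 0.258 and 0.224 FPKM in CFA3D and 0.229, 0.338 and 0.326 FPKM in CFA6D. Each CFA6D library lay above each saline library, and in these plain sums CFA3D overlapped both. The group means were 0.126 ± 0.0476, 0.207 ± 0.0612 and 0.298 ± 0.060 FPKM (SD, n = 3 pools each). The log2 fold change was 0.44 on CFA3D and 0.82 on CFA6D, each with an SE of 0.30. The CFA6D value had an unadjusted p of 0.0204 and an adjusted p of 0.340 in limma, and the latter ran from 0.243 to 0.550 over the alternatives. The difference between CFA6D and CFA3D was 0.38 (95% interval -0.28 to 1.05).

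These Htr6 values rest on few reads. The libraries held an estimated 5.35, 11.8 and 12.8 read pairs in saline, 13.7, 18.6 and 15.4 in CFA3D and 21.1, 29.8 and 26.4 in CFA6D. Its transcript models, ENSMUST00000105802 and ENSMUST00000068036, have the same coding sequence and different starts. The latter was above 0 only in CFA3D replicates 2 and 3 and CFA6D replicate 6, at 0.0700 to 0.135 FPKM. On CFA6D the log2 fold change was 0.65 without saline replicate 1, the lowest library, 0.75 without CFA6D replicate 5 and 0.77 without CFA6D replicate 6, with unadjusted p in limma of 0.0681, 0.0663 and 0.0528. It was 0.20 at a pseudocount of 1 FPKM and 1.22 at 0.01 FPKM. CFA6D replicates 4 and 5 held pituitary transcripts, and saline replicate 3, which held the most, stood at 0.136 FPKM. CFA6D replicate 4, with the lowest sum of central nervous markers, stood at 0.229 FPKM. The neutrophil markers summed to 140, 127 and 2687 FPKM in CFA6D replicates 4 to 6. Their sums were 49.4 to 121 FPKM in saline and 25.1 to 75.1 FPKM in CFA3D, so each CFA6D library lay above each saline library here too. The part of these tissues and cells in the Htr6 values was not tested.

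Htr7, the other Gs-coupled member, stood at 2.30, 1.92 and 1.37 FPKM in saline, 1.77, 1.73 and 1.21 FPKM in CFA3D and 1.80, 1.27 and 1.79 FPKM in CFA6D. The groups overlapped, with log2 fold changes of -0.22 and -0.18, each with an SE of 0.24. Of its 6 transcripts 5 were tested, and none had an unadjusted p under 0.05. The form of 448 codons ranged from 0.0462 to 1.24 FPKM and that of 435 codons from 0.203 to 0.940 FPKM. The form of 470 codons was listed at 0 in CFA3D replicate 3 and at up to 0.326 FPKM elsewhere. The shares of the first of these forms were 53.9%, 63.1% and 21.4% in saline, 32.8%, 2.67% and 43.3% in CFA3D and 14.9%, 21.4% and 64.3% in CFA6D, so the groups overlapped widely. The form of 435 codons made up 10.7%, 10.6% and 30.3% in saline, 29.0%, 54.4% and 23.0% in CFA3D and 40.8%, 42.4% and 19.3% in CFA6D. Saline replicates 1 and 2 held the lowest of these shares and saline replicate 3 lay among the CFA libraries, with an exact permutation p of 0.3 for CFA3D and 0.2 for CFA6D against saline. The FPKM of this form had log2 fold changes of 0.72 on CFA3D and 0.71 on CFA6D, each with an SE of 0.42, and adjusted p of 0.989 and 0.805 in limma.

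Over all receptors, 18 of 27 transcripts reached a mean of 0.1 FPKM and were tested, and none was called in any comparison, beside 2.19%, 2.57% and 2.23% of all 66562 transcripts tested. By unadjusted p alone 2 passed for CFA6D against saline, ENSMUST00000088677 of Htr1d and ENSMUST00000105802 of Htr6 (6.81% of all), 0 for CFA3D against saline (4.68% of all), and 1 for CFA6D against CFA3D, the latter again (5.42% of all).

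Of the 4 serotonin receptor genes outside the set, Htr4 had the highest mean at 2.08 FPKM, followed by Htr2b (0.893), Htr5b (0.675) and Htr5a (0.398). None had an unadjusted p under 0.05 in any comparison. The largest change among them was that of Htr5b on CFA6D, with a log2 fold change of 0.40 (SE 0.28) and an adjusted p of 0.658 in limma.

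Of 12 genes that make, carry and degrade serotonin, 2 had an unadjusted p under 0.05 against saline, both on CFA6D and both higher, where 8.22% of all gene sums were higher at that p. Slc18a1, a vesicular monoamine transporter, stood at 0.690, 0.495 and 0.647 FPKM in saline and at 1.28, 0.698 and 1.62 FPKM in CFA6D, with a log2 fold change of 0.81 (SE 0.34) and an adjusted p of 0.425 in limma. Slc29a4, a low-affinity monoamine carrier, stood at 2.59, 3.10 and 3.63 FPKM in saline and at 4.66, 4.24 and 3.89 FPKM in CFA6D, with a log2 fold change of 0.45 (SE 0.15) and an adjusted p of 0.302 in limma. For both genes each CFA6D library lay above each saline library, as for 10.7% of all gene sums. Maoa, which degrades serotonin, was the most abundant of the list at a mean of 8.20 FPKM, and had a log2 fold change of -0.20 for CFA6D against CFA3D (SE 0.08), with an unadjusted p of 0.0313 and an adjusted p of 0.648 in limma.

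The synthesis enzymes Tph1 and Tph2 had means of 0.235 and 0.217 FPKM. Ddc had a mean of 1.03 FPKM, Gch1 of 0.812, Slc18a2 of 1.08, Slc22a3 of 0.522, Maob of 1.35 and Aanat of 0.901, and none of these had an unadjusted p under 0.05. The serotonin transporter Slc6a4 was at 0.10 to 0.640 FPKM in 8 libraries and at 1.61 FPKM in CFA6D replicate 6. That library also had the highest platelet sum, at 44.9 FPKM against 8.03 to 16.4 FPKM elsewhere. Fev, a transcription factor of serotonergic neurons, was at 0.238 FPKM or less.

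Of 23 genes that couple these receptors to the cell, 2 had a higher level at an unadjusted p under 0.05 on CFA3D and 7 on CFA6D, with none lower and none called, beside 3.65% and 8.22% of all gene sums that were higher at that p. The median log2 fold change was 0.09 and 0.12, beside 0.28 and 0.19 for the sensory neuron markers and 0.05 and 0.03 over all gene sums, and the part of neuron content in these values was not tested. Gnao1, the alpha subunit of Go, stood at 60.6, 63.4 and 79.2 FPKM in saline and 91.7, 86.3 and 87.3 FPKM in CFA6D, with a log2 fold change of 0.39 (SE 0.10) and an adjusted p of 0.191 in limma. Gnaq, the alpha subunit of Gq, stood at 28.2, 26.8 and 25.5 FPKM in saline and 43.3, 34.1 and 32.9 FPKM in CFA6D, with a log2 fold change of 0.44 (SE 0.10) and an adjusted p of 0.162 in limma. Gnaq and Gnao1 were chosen for these 2 sentences after their values had been seen. The most abundant of the list, S100a10, whose product binds Htr1b and Htr4 receptors, and Gnas, the alpha subunit of Gs, had log2 fold changes of -0.10 and -0.05 on CFA6D.

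The gene sums most like a receptor over the 9 libraries were looked up for the 3 receptors with the highest mean, by Pearson correlation of log2(FPKM + 0.1) among 13174 others with a mean of at least 1 FPKM. For Htr3a they were Ngly1 (r = 0.981), Actr1a (0.972) and Cyp2j6 (0.967). For Htr1d they were Herc1 (0.946), Ptpn3 (0.942) and Cdnf (0.935). For Htr1b they were Raly (0.961), Ephb6 (0.939) and Sh2d4b (0.938), and the Htr1b pattern here holds the division between its models. The libraries share groups and depths, and the best of many genes was picked, so these are descriptions.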

How the data were processed

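RNA of the TG was measured in 9 libraries, and the deposited FPKM values, made by the authors, list each transcript in an mRNA, an lncRNA or a small and other RNA table. The study's methods name reads trimmed and mapped to GRCm38 and hits counted in CLC Genomics Workbench, without naming FPKM, whereas the submitters' processing notes list Bowtie 0.12.2 and mm8.

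Gene names came from the mouse GENCODE release 21 annotation, which held 101539 of the 102122 mRNA transcripts, and FPKM was summed per gene name. A read pair in 1 kb was worth 0.0237 to 0.0333 FPKM, from the steps of low values. A linear model of the 3 groups was fitted to log2(FPKM + 0.1) of all 9 libraries with limma 3.58.1 (R 4.3.3) and a trended empirical Bayes prior. A mean of 0.1 FPKM or more was needed for a test, and Benjamini-Hochberg adjustment ran over all features tested. The pseudocount makes the changes of low genes look smaller. The fit was tested on simulated data for CFA6D against saline. A true log2 change of 1 was called for 47.5% of the gene sums that carried it, and a change of 2 for 98%. By unadjusted limma p alone 91% and 98% passed. The call rule needs a measured change of 1 or more, so a true change of exactly 1 can fall on either side of it whatever the spread. It thus misses many changes near a doubling. These rates are over gene sums drawn at random from all levels and were not worked out for the receptors. Python 3.11.15 did the rest.

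The members and lists were chosen with earlier results of these data known. All 10 receptors are named, with every gene of the lists of other serotonin receptors and of serotonin handling. From other lists the rule names the 2 most abundant genes and any called gene. Of the cell type lists, the text gives the called genes and otherwise only what bears on a receptor value or marks a library. Pseudocount, filter, normalization, samples fitted and gene sum were varied, and the length-weighted sum is an alternative chosen after seeing the data.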

Additional observations from a re-analysis of the deposited data

Results flagged for a closer look

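Between the CFA days 1 of 18 receptor transcripts had an unadjusted p under 0.05, beside 5.42% of all transcripts tested, and none was called. ENSMUST00000105802, the main transcript of Htr6, was higher on CFA6D than on CFA3D by 0.70 on the log2 scale (limma, unadjusted p of 0.0401, adjusted p of 0.918). It was 0.139, 0.123 and 0.125 FPKM in CFA3D and 0.229, 0.338 and 0.256 FPKM in CFA6D. As the plain sum over both Htr6 models the difference was 0.38 with an unadjusted limma p of 0.227. With the models weighted by length it was 0.50, with an unadjusted p of 0.084 and an adjusted p of 0.65 in limma. On that scale each CFA6D library lay above each CFA3D library, as for 7.30% of all gene sums.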

How the results depend on the processing

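Of 502 alternative values for the 30 log2 fold changes of the receptors, 478 kept direction and side of the threshold, 1 became a call and 23 changed sign, in 13 fold changes of which none was called. The call was Htr6 on CFA6D at a pseudocount of 0.01 (1.22), so that 1 gene sum and 1 transcript were called there instead of 0, and with no fold change minimum 1 gene sum was. Receptors with an unadjusted p under 0.05 on CFA6D numbered 0 with a mean of at least 1 FPKM, which leaves Htr6 out, 2 with the most abundant transcript, 2 with length-weighted sums and 0 to 2 when each library was left out. For CFA3D against saline they numbered 1 with length-weighted sums and 0 to 1 when each library was left out, and for CFA6D against CFA3D 1 with only the 2 groups compared and 1 with the most abundant transcript. Called transcripts on CFA3D numbered 0 to 1 over the libraries left out: ENSMUST00000183482 of Htr1b without CFA3D replicate 1 (1.01) and ENSMUST00000166074 of Htr7 without CFA3D replicate 3 (1.08).

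The changes of sign for CFA3D against saline were Htr1b at a pseudocount of 1 (-0.0036), with quantile normalization (-0.018), with its most abundant transcript (-1.50) and over the libraries left out (-0.42 to 0.23), Htr2c at a pseudocount of 0.01 (0.20), and Htr3a with quantile normalization (-0.029), with its most abundant transcript (-0.018) and over the libraries left out (-0.11 to 0.22). Over the libraries left out, Htr1d ran from -0.053 to 0.21, Htr1f from -0.096 to 0.29, Htr1a from -0.048 to 0.32 and Htr3b from -0.020 to 0.36. For CFA6D against saline, Htr2c was 0.14 at a pseudocount of 0.01, and over the libraries left out Htr3a ran from -0.31 to 0.014 and Htr3b from -0.14 to 0.23. For CFA6D against CFA3D, Htr7 was -0.0063 with quantile normalization, and over the libraries left out Htr1a ran from -0.0088 to 0.36, Htr2c from -0.15 to 0.17 and Htr7 from -0.12 to 0.20. The length-weighted change of Htr1b between the CFA days ran from -0.039 to 0.10 over the libraries left out. The cause was not tested.

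With saline and CFA3D of the same number as a replicate block, 0 receptors were called, 0 had an unadjusted p under 0.05 and the length-weighted change of Htr1b was 0.38 (unadjusted limma p of 0.0434). Same-numbered libraries deviated together with correlations of 0.09, -0.08 and 0.03, and those with different numbers with -0.11 to 0.06. These values cannot tell whether libraries of the same number were handled as pairs. CFA6D shares no number with the others. Depth limits Htr6 and Htr2c most, with 5.35 to 29.8 and 0 to 89.3 read pairs per library.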
